A study of Ovis aries with 6 samples.

Results

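In the sheep oocyte libraries, 38 of 6695 assembled loci were scarce and stood at least 2.5 times higher in metaphase II (MII) than in germinal vesicle (GV) oocytes. An assembled locus is a stretch of transcription that StringTie built from reads and numbered with an MSTRG identifier. Levels are in CPM, the count of a locus scaled to the total count of its library. The 38 loci had a mean level under 50 CPM over all 6 libraries, a mean of at least 2 CPM over the 3 MII libraries, and an MII mean at least 2.5 times the GV mean. These values of MII and GV chose the loci, so their difference between stages is described here and not tested.

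The GV oocyte has paused in meiotic prophase and still has its nucleus. The MII oocyte has extruded its first polar body and waits for fertilization. Transcription is largely silent in the fully grown oocyte, and its maturation runs mostly on stored maternal RNA whose stability, poly(A) tail and translation are regulated. Loci that an assembler finds outside the annotation can be long non-coding RNAs, unannotated genes, retained introns or extended ends of known genes. The deposited table gives no positions, sequences or names for the 38 loci, and their kind is not known here.

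Each stage had 3 libraries of sheep oocytes, whose strain is given as Xinjiang Sheep. Each library pooled 30 to 35 oocytes, and the follicles measured 2 to 8 mm. GV oocytes were taken denuded. MII oocytes came from cumulus-oocyte complexes whose cumulus was removed with hyaluronidase, and they spent 23 to 25 h in maturation medium at 38.5 °C and 5% CO2 before those with a first polar body were collected. Maturation stage therefore cannot be told apart from the culture or from how the oocytes were obtained. Whether the pools came from different animals is not stated, so p-values measure only the spread between these libraries, which may be technical.

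Total counts ran from 26984892 to 31962405 per library. Trimmed mean of M-values (TMM) scaling factors split by stage, at 1.16 to 1.17 in GV and 0.899, 0.910 and 0.769 in MII libraries 1, 2 and 3. MII library 3 had the lowest. None of the 25609 identifiers could be matched to a gene symbol, so oocyte, cumulus and blood cell markers could not be examined. The libraries are bulk RNA, so more cells carrying a transcript and more of it per cell cannot be told apart.

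Loci with this behaviour were few in their class. There were 3177 assembled loci under 50 CPM with at least 2 CPM in MII (scarcer loci), and the 38 made up 1.20% of them. Among annotated genes within the same limits, 224 of 6069 (3.69%) met the ratio of 2.5. In the other direction, 1695 of 4433 assembled loci under 50 CPM with at least 2 CPM in GV were at least 2.5 times higher in GV (38.2%), and 1557 of 6856 such annotated genes (22.7%). The median ratio of MII to GV was 0.669 over the scarcer loci, 0.946 over the annotated genes within the same limits and 2.99 over the 38. Scaling on library totals places the median of all tested features at −0.45 on the log2 scale, so a ratio of 1 lies above that median.

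**Figure D1:**
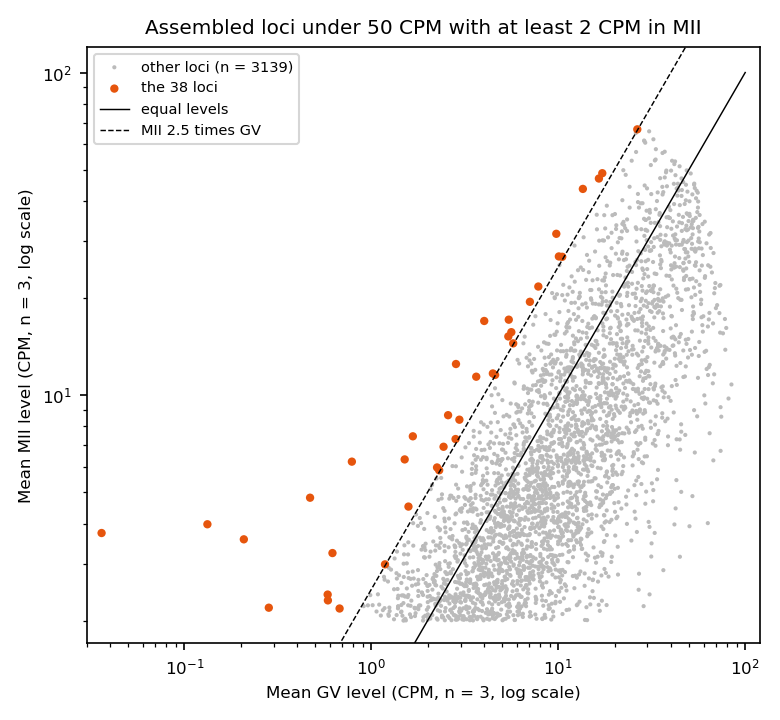
Mean level in the 3 MII libraries (y axis, CPM, log scale) against the mean level in the 3 GV libraries (x axis, CPM, log scale) for assembled loci under 50 CPM with at least 2 CPM in MII. The 38 loci (orange) lie on or above the dashed line at a ratio of 2.5, and most of the other 3139 loci (grey) lie below the solid line of equal levels.

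The 38 loci covered a wide range of levels. Their MII means ran from 2.18 to 66.7 CPM with a median of 8.53 CPM, and their GV means had a median of 2.83 CPM. In MII, 11 loci had 2 to under 5 CPM, 9 had 5 to under 10 CPM, 10 had 10 to under 20 CPM and 8 had 20 CPM or more. Counts summed over the 6 libraries ran from 228 to 8105 per locus, with a median of 1016. Ratios were under 3 in 19 loci, at least 4 in 12 and at least 10 in 4. Together the 38 took 0.0184% to 0.0191% of a GV library's counts and 0.0513%, 0.0552% and 0.0609% of those of MII libraries 1, 2 and 3.

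Values ran on without a gap across the lower limits of the choice. Just inside the ratio were MSTRG.16776 at 2.51, MSTRG.14094 at 2.52 and MSTRG.6905 at 2.52, and just outside were MSTRG.8362 at 2.498, MSTRG.17558 at 2.493 and MSTRG.15954 at 2.492. The lowest MII means among the 38 were 2.18 CPM in MSTRG.2467 and 2.19 CPM in MSTRG.24323, and MSTRG.11436 and MSTRG.2959 were left out at 1.92 CPM each. At the upper limit, MSTRG.14094 had a mean of 46.6 CPM over all libraries and MSTRG.18704 had 33.0 CPM, while MSTRG.20964 at 51.8 CPM and MSTRG.15382 at 64.0 CPM were left out. In all, 50 loci met the ratio below 2 CPM in MII and 9 met it at 50 CPM or more. With CPM on TMM-scaled totals, 162 loci met the rule, and all 38 were among them.

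In 29 of the 38 loci, the 3 MII values all lay above the 3 GV values. Over all 19302 tested features this held for 16.7%, and over the 6448 tested assembled loci for 6.34%. The edgeR fit over all features called 32 of the 37 loci it tested higher in MII (Benjamini-Hochberg adjusted p under 0.05), against 24.7% of all tested features and 11.1% of tested assembled loci. The loci were chosen on the same contrast, so neither count supports a difference. Called loci left out MSTRG.6905, MSTRG.14094, MSTRG.17052, MSTRG.20123 and MSTRG.22278, in each of which the stages overlapped. MSTRG.8281 did not pass the filter on low counts.

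**Figure D2:**
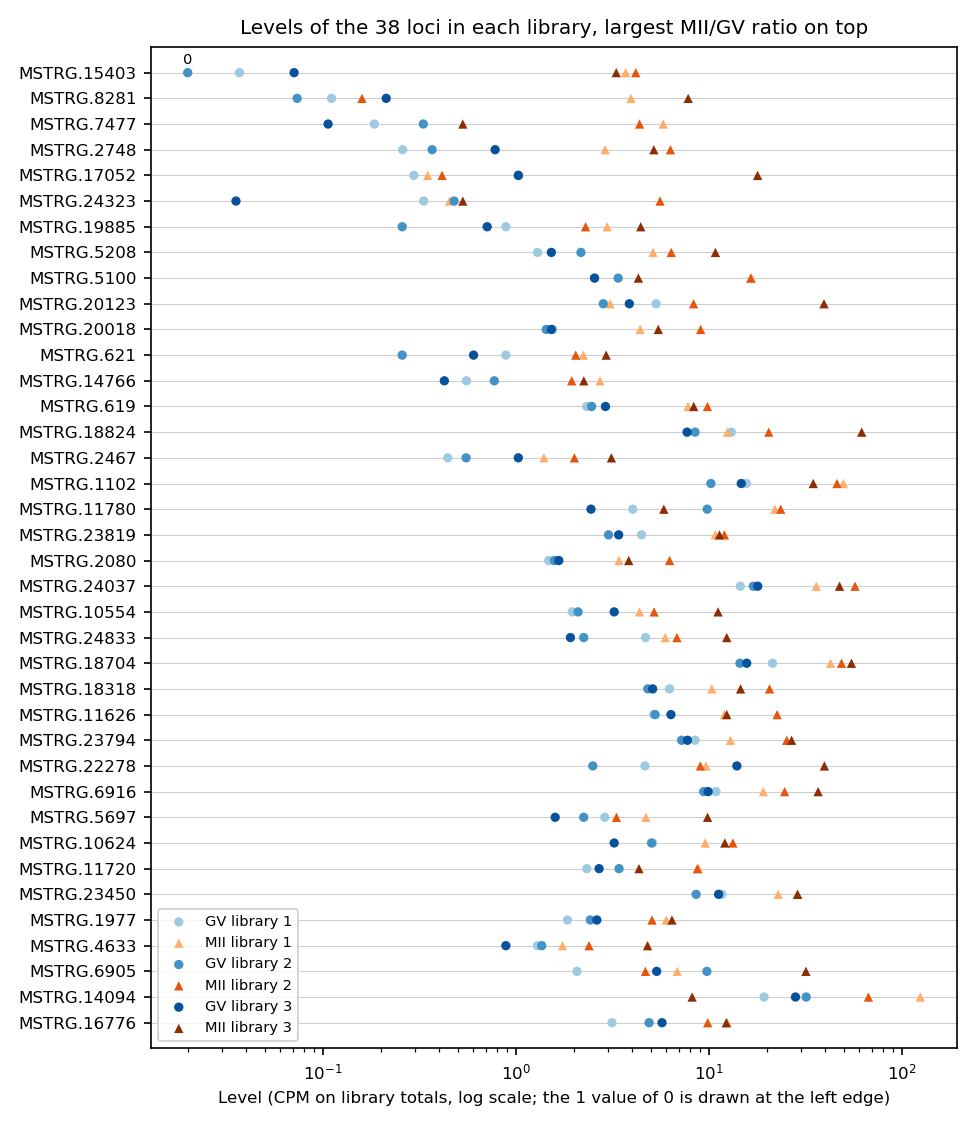
Level of each of the 38 loci (rows, ordered by the ratio of MII to GV) in every library (x axis, CPM, log scale). Circles are the 3 GV libraries and triangles the 3 MII libraries. In 29 loci all triangles lie to the right of all circles, and MSTRG.15403 at the top is nearly absent from GV.

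The loci divided by how many MII libraries carried the difference. All 3 MII libraries stood at 2.5 times the GV mean or more in 11 loci, 2 libraries did in 14 and a single library did in 13. The 11 loci had a median ratio of 4.19, a range from 3.13 to 104, and a median GV level of 0.620 CPM. The 14 loci had a median ratio of 2.79 and a median GV level of 5.00 CPM, and the 13 had 2.84 and 2.96 CPM. Stages were apart in all of the 11, in 11 of the 14 and in 7 of the 13. With all 3 MII libraries at that ratio, stages overlap only if a GV library also reaches 2.5 times the GV mean. These counts therefore follow in part from the grouping.

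**Figure D3:**
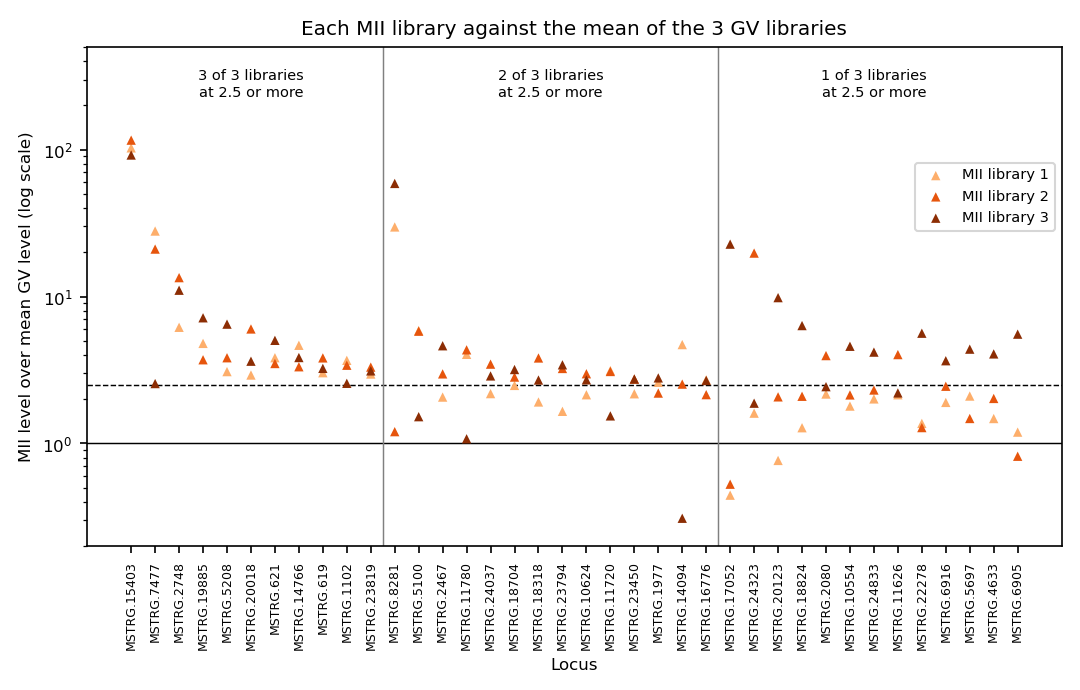
Level of each MII library divided by the mean of the 3 GV libraries (y axis, log scale) for each locus (x axis). Loci are grouped by the number of MII libraries at 2.5 or more (dashed line), 11 with 3, 14 with 2 and 13 with 1, and the solid line marks equality with the GV mean.

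MSTRG.15403 had the largest ratio and was close to absent from GV oocytes. It had 1, 0 and 2 counts across GV and 106, 131 and 106 across MII. These are levels of 0.0371, 0 and 0.0711 CPM in GV and 3.71, 4.19 and 3.32 CPM in MII. All MII libraries were alike, within a factor of 1.26, and far above every GV library. The ratio of pooled counts was 102, with an exact 95% counting interval of 34.7 to 499 (Clopper-Pearson on the MII share of counts). Such an interval takes every read as a separate molecule. Amplified reads are not, so it may be too narrow even for counting error. It also leaves out the spread between libraries and the choice of the locus on these same counts. The locus numbered next to it, MSTRG.15404, averaged 0.171 CPM in GV and 0.613 CPM in MII.

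MSTRG.2748 and MSTRG.7477 were also scarce in GV. MSTRG.2748 had 0.259, 0.369 and 0.782 CPM in GV and 2.90, 6.33 and 5.19 CPM in MII, a ratio of 10.2, with every MII library well clear of GV. MSTRG.7477 had 0.185, 0.332 and 0.107 CPM in GV and 5.81, 4.38 and 0.532 CPM in MII. Its ratio was 17.2, but MII library 3 was 10.9 times lower than library 1 and only a little above the highest GV library.

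Other loci also had all 3 MII libraries at 2.5 times the GV mean or more. MSTRG.19885 had 0.889, 0.258 and 0.711 CPM in GV and 2.97, 2.30 and 4.44 CPM in MII (ratio 5.23). MSTRG.5208 had 1.30, 2.18 and 1.53 CPM in GV and 5.14, 6.39 and 10.8 CPM in MII (ratio 4.47). MSTRG.20018 had the tightest GV values of the 38, at 1.56, 1.44 and 1.53 CPM, and 4.41, 9.08 and 5.48 CPM in MII (ratio 4.19). In these loci the lowest MII library stood more than 2 times above the highest GV library.

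MSTRG.23819 had the most even MII libraries of the 38. Its levels were 4.48, 3.02 and 3.41 CPM in GV and 10.8, 12.0 and 11.4 CPM in MII, or 3.64 ± 0.756 and 11.4 ± 0.619 CPM (SD, n = 3 each). MSTRG.619 was nearly as even, with 2.33, 2.47 and 2.92 CPM in GV and 7.80, 9.84 and 8.35 CPM in MII. MII values of MSTRG.14766 and MSTRG.621 also differed by less than a factor of 1.5. MSTRG.23450 and MSTRG.16776 completed the 4 most even. MSTRG.23450 had 11.7, 8.60 and 11.2 CPM in GV and 22.9, 28.8 and 28.8 CPM in MII, and MSTRG.16776 had 3.15, 4.91 and 5.73 CPM in GV and 12.5, 9.87 and 12.3 CPM in MII. Both kept their stages apart. MSTRG.14766 and MSTRG.621 averaged 2.31 ± 0.393 and 2.41 ± 0.471 CPM in MII against 0.586 ± 0.176 and 0.584 ± 0.316 CPM in GV.

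In 4 of the 6 most abundant loci, at least 2 MII libraries reached 2.5 times the GV mean. These 6, by MII mean, held 47.4% of the summed MII level of the 38. MSTRG.18704 had 21.4, 14.5 and 15.7 CPM in GV and 42.7, 48.7 and 54.8 CPM in MII (ratio 2.83). MSTRG.24037 had 14.6, 17.0 and 17.9 CPM in GV and 36.0, 57.2 and 47.6 CPM in MII (ratio 2.84). MSTRG.1102 had 15.6, 10.3 and 14.7 CPM in GV and 49.8, 46.1 and 34.8 CPM in MII (ratio 3.22). Stages were well apart in these 3 loci. MSTRG.6916 was graded across MII libraries, at 19.2, 24.7 and 36.9 CPM against 10.9, 9.41 and 9.92 CPM in GV, and only library 3 reached 2.5 times the GV mean.

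The most abundant locus of all was not uniform in MII. MSTRG.14094 had 19.3, 31.9 and 28.1 CPM in GV and 125, 67.1 and 8.20 CPM in MII. MII library 1 was 15.2 times library 3, which lay below every GV library, so the stages overlapped. Without its highest MII library the ratio was 1.42 in place of 2.52.

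Low values in MII library 3 recurred in other loci. MSTRG.5100 had 2.56, 3.39 and 2.56 CPM in GV and 16.7, 16.5 and 4.32 CPM in MII, with library 3 low yet above all GV libraries. MSTRG.11780 had 4.04, 9.81 and 2.45 CPM in GV and 22.0, 23.6 and 5.85 CPM in MII, and its library 3 lay within the GV range. MSTRG.11720 had 8.85, 8.72 and 4.35 CPM in MII against 2.33 to 3.43 CPM in GV. Library 3 was the lowest MII library in 7 of the 38 loci (18.4%). Over the 3177 scarcer loci it was the lowest more often, in 44.2%. Among the annotated genes that met the same limits and ratio it was the lowest in 17.9%. These shares were not tested.

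High values in MII library 3 alone were more frequent. Of the 13 loci in which a single MII library reached 2.5 times the GV mean, that library was number 3 in 10, number 2 in 3 and number 1 in 0. MSTRG.17052 was the extreme case, with 0.296, 1.03 and 1.03 CPM in GV and 0.350, 0.415 and 17.9 CPM in MII. Its counts in MII were 10, 13 and 572, so library 3 was 43.1 times the next, and the other MII libraries lay within the GV range. Without library 3 its MII to GV ratio was 0.486, below 1.

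MSTRG.20123, MSTRG.18824, MSTRG.6905 and MSTRG.22278 had the same form at higher levels. MSTRG.20123 had 5.34, 2.84 and 3.88 CPM in GV and 3.08, 8.34 and 39.5 CPM in MII. MSTRG.18824 had 13.1, 8.48 and 7.72 CPM in GV and 12.5, 20.5 and 61.9 CPM in MII. MSTRG.6905 had 2.08, 9.78 and 5.37 CPM in GV and 6.86, 4.70 and 31.8 CPM in MII. Library 3 was 3.03 to 4.74 times the next MII library in these loci and in MSTRG.22278, which had 9.66, 9.04 and 39.7 CPM in MII. In each of the 4, at least 1 other MII library lay within the GV range, and the ratio without library 3 was between 1.01 and 1.69.

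MSTRG.24323 owed its place to MII library 2. It had 0.334, 0.480 and 0.0356 CPM in GV and 0.455, 5.59 and 0.532 CPM in MII, on counts of 9, 13 and 1 and of 13, 175 and 17. Library 2 was 10.5 times the next, and the ratio without it was 1.74. MSTRG.8281 was the reverse, since library 2 was the low one, within the GV range. Its counts were 3, 2 and 6 in GV and 113, 5 and 250 in MII, a level of 0.160 CPM in library 2 against 3.95 and 7.82 CPM in libraries 1 and 3.

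A single high library was common among the 38 compared with the loci around them. The highest MII library was at least 3 times the next in 6 of the 38 (15.8%) and in 33 of the 3177 scarcer loci (1.04%). It was at least 10 times the next in 2 of the 3177, MSTRG.17052 and MSTRG.24323, both among the 38. Among the 224 annotated genes that met the same limits and ratio, 24 (10.7%) had a highest MII library at least 3 times the next and 7 (3.12%) one at least 10 times the next. A mean over 3 libraries passes the ratio more easily when 1 of them is very high, so these shares follow in part from the choice, and they were not tested.

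Leaving out 1 library at a time showed which loci rest on it. Without MII library 3, 16 of the 38 no longer met the rule, against 4 without MII library 1 and 7 without MII library 2. Without GV libraries 1, 2 and 3 the numbers were 6, 2 and 7. Whichever single library was left out, 15 of the 38 met the rule. Without its own highest MII library, a locus kept a ratio of at least 2.5 in 17 cases and of at least 2 in 28.

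The order of the MII libraries differed from that of the scarcer loci as a whole, most of which were lower in MII. MII library 1 was also the nearest to the GV libraries over all features. Its chi-square per degree of freedom against them was 196 to 202, and 279 to 334 for MII libraries 2 and 3. Its part in the order was not tested. Library 3 was the highest in 19 of the 38 and library 1 the lowest in 22 (57.9%). Over the 3177 scarcer loci, library 3 was the highest in 24.7% and library 1 the lowest in 15.0%, and library 1 was the highest in 53.7%. Annotated genes that met the same limits and ratio also had library 1 as the lowest most often, in 68.3%, but their highest was library 2 in 64.3% and library 3 in 28.1%. With TMM-scaled totals library 3 was the highest in 60.5% of the 38. That scaling raises library 3 against the other MII libraries for every feature. The same share was not taken for the scarcer loci or the annotated genes, so 60.5% has no like value beside it. None of these differences was tested, nor was the part that the low TMM factor of MII library 3 has in them.

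The spread between libraries of a stage was not used by the rule, although a wide spread can lift a mean. It was taken per locus as the SD of log2(CPM + 0.5) over 3 libraries. The median over the 38 was 0.29 in GV and 0.51 in MII, a quotient of 1.74, and 27 of the 38 (71.1%) had the larger SD in MII. Over the 3177 scarcer loci the medians were 0.21 and 0.33, a quotient of 1.57, and 69.5% had the larger SD in MII. The added 0.5 narrows the SD at low levels, and 10 of the 38 had a GV mean under 1 CPM. The 2 sets are not matched for level, with median GV and MII means of 2.83 and 8.53 CPM against 9.85 and 5.77 CPM. Among the 13 of the 38 with at least 5 CPM in both stages the quotient was 1.73. Differences between pairs of libraries show where the MII spread of the 38 lay. The median absolute log2 difference was 0.33 to 0.34 for the 3 pairs of GV libraries and 0.36 between MII libraries 1 and 2. It was 0.82 between MII libraries 1 and 3 and 0.70 between 2 and 3. Over the scarcer loci the same medians were 0.23 to 0.24 in GV and 0.36, 0.41 and 0.39 in MII, so the pairs with library 3 stood further out among the 38. That difference was not tested.

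**Figure D4:**
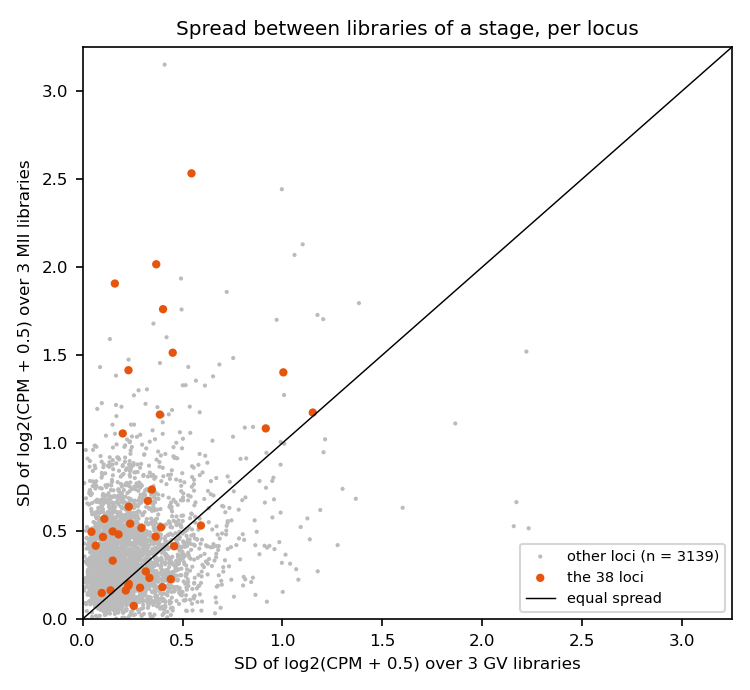
SD of log2(CPM + 0.5) over the 3 MII libraries (y axis) against that over the 3 GV libraries (x axis), for the 38 loci (orange) and the other 3139 scarcer loci (grey). The line marks equal spread, and 27 of the 38 loci lie above it, with MSTRG.17052 the highest of the 38.

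To read the ratio in libraries that had not chosen the loci, the rule was applied to the 4 libraries of 2 replicate numbers and the ratio was taken in the GV and MII library of the remaining number. The numbers pair no samples and serve only to divide them. Holding out number 1, the rule chose 71 loci, and their median held-out ratio was 1.35. It chose 53 loci with number 2 held out and 53 with number 3, with median held-out ratios of 2.10 and 1.95. Over the scarcer loci the median ratios in the same libraries were 0.749, 0.575 and 0.647. Of the chosen loci, 32 of 71, 32 of 53 and 25 of 53 were among the 38, so these values describe the rule rather than the 38 alone. Loci chosen by the rule were mostly higher in MII in the unused pair, with medians below the 2.5 times that chose them. This describes single pairs of libraries and is not a test of a difference between stages.

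The share of chosen loci with a held-out ratio over 1 was 74.6%, 75.5% and 84.9% for numbers 1, 2 and 3. Among the scarcer loci it was 30.8%, 22.5% and 28.7%, although these were defined on all 6 libraries. A held-out ratio of at least 2.5 was reached by 19.7%, 41.5% and 35.8% of the chosen loci. At least 2.5 times lower in MII in the held-out pair were 1 locus, 0 loci and 5 loci for numbers 1, 2 and 3, the lowest ratio being 0.0149. None of these is among the 38, whose choice used the held-out pair too. Of the 38, MSTRG.17052 and MSTRG.6905 had held-out ratios of 0.402 and 0.481 with number 2 held out. With number 1 held out, MSTRG.20123 and MSTRG.18824 had 0.577 and 0.955. Each held-out pair has 1 library per stage, so these ratios have no replicate check and no test. In 1 case, MSTRG.15403 with number 2 held out, the GV library had 0 counts.

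**Figure D5:**
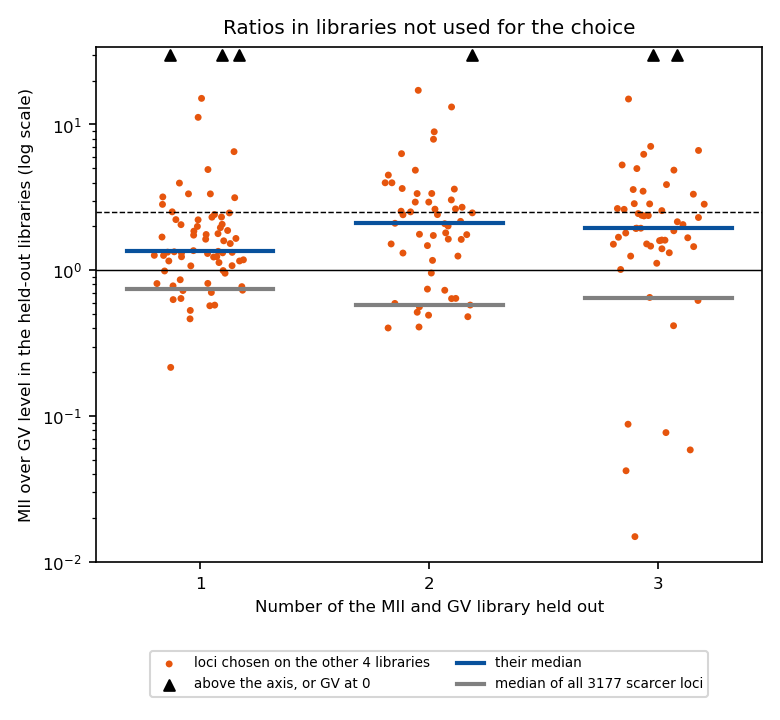
Ratio of MII to GV level (y axis, log scale) in the pair of libraries held out of the choice (x axis, replicate number), one point per chosen locus. Blue bars are medians of 1.35, 2.10 and 1.95, grey bars the medians of the 3177 scarcer loci at 0.749, 0.575 and 0.647, and the dashed line is the ratio of 2.5. Black triangles are ratios above the top of the axis or with GV at 0.

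Most of the 38 loci stood alone among their neighbours by number. StringTie numbers loci as it assembles them, and their positions were not used here. The numbers of the 38 ran from 619 to 24833, in a table that reached 25229. Only MSTRG.619 and MSTRG.621 lay within 3 numbers of another of the 38 (2 loci, 5.26%), and 0.961% of the other assembled loci lay as near to one of the 38. Between them, MSTRG.620 had 74.1, 72.4 and 73.0 CPM in GV and 76.8, 37.2 and 55.1 CPM in MII, with means of 73.2 and 56.3 CPM.

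Most neighbours of the 38 were lower in MII, in about the same share as other assembled loci. The table held 64 other loci within 3 numbers of one of the 38. Of these, 52 (81.2%) had a lower mean level in MII, as did 81.0% of all other assembled loci, and their median ratio was 0.557 against 0.512. At least 2.5 times lower in MII were 22 of the 64. The same share was not taken over all other assembled loci. Over assembled loci under 50 CPM with at least 2 CPM in GV it was 38.2%, so such falls were common in the class. MSTRG.10623, beside MSTRG.10624, averaged 1.67 CPM in GV and 0.0933 CPM in MII. Its levels were 0, 3.50 and 1.49 CPM in GV and 0.280, 0 and 0 CPM in MII, so its stages overlapped. MSTRG.10624 averaged 4.47 CPM in GV and 11.7 CPM in MII. MSTRG.14093, beside MSTRG.14094, averaged 2.57 CPM in GV and 0.224 CPM in MII.

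Counts of 1 locus nearly matched those of an annotated gene. MSTRG.1977 had 50, 66 and 74 GV counts and 172, 159 and 206 MII counts. For ENSOARG00000015417 the GV counts were 54, 69 and 75, and the MII counts 173, 163 and 209. They differed by at most 4 counts in any library. Whether the 2 features shared reads was not tested. No other locus of the 38 had an annotated gene within 10% in every library. The share with such a gene was 2.63%, against 5.29% of 3117 other scarcer loci with totals in the same range. These shares are matched for total count but not for the ratio of MII to GV. Only 3.69% of the annotated genes within the same limits met the ratio of 2.5, so fewer genes could match the 38.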

How the data were processed

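The authors deposited 1 table of whole-number counts per feature, without normalization, for 3 GV and 3 MII libraries. The tools named per the submitters' processing notes were StringTie 2.0, featureCounts 1.6.4, STAR 2.7.1a, DESeq2 and Trimmomatic 0.38, on Oar_v3.1. Their roles, the libraries assembled, the strand setting and the treatment of overlapping features were not given in the sources used here. Ribosomal RNA was removed, per the labels' protocols, from 3 µg of RNA and libraries were read as pairs of 100 bp. Columns were assigned by stage and replicate number.

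CPM is the count over the column total. Features passing filterByExpr (19302) were tested with edgeR 4.0.16 (TMM, robust quasi-likelihood F-test, MII against GV) in R 4.3.3, after a check on simulated data. Same-numbered libraries did not deviate together (correlations −0.0892, −0.230 and −0.0304). No pair of libraries agreed within sampling noise (chi-square per degree of freedom 18.0 or more). Alternatives were other scalings, limits, no filter, the DESeq2 1.42.0 Wald test, each library left out in turn, and a replicate block. Named loci were those with the highest MII means, largest ratios, widest and most even MII libraries, and those nearest the limits, overlapping most, matching a gene or neighbouring one another. Other loci named, the division by number of MII libraries at the ratio, and the differences between library pairs were chosen after values were seen. The loci and lists were chosen with earlier results of these data known. None of the 25609 identifiers matched the reference table, so no sequence is shown.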

Additional observations from a re-analysis of the deposited data

How the results depend on the processing

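The number of loci meeting the rule depended on its scale and its ratio. It was 162 with CPM on TMM-scaled totals, 115 at a ratio of 2 and 12 at a ratio of 4, in place of 38, and 40 to 62 without 1 library (62 without MII replicate 1). When libraries were scaled on their totals only, 2332 features and 262 assembled loci were called higher in MII, against 4769 and 713 with TMM, and a median log2 fold change of the 38 of 1.51 against 2.00. Without 1 library, 458 (without GV replicate 3) to 843 assembled loci were called higher. The quotient of MII over GV spread ran from 0.877 (without MII replicate 3) to 2.17 without 1 library, but sets 2 libraries against 3, which by itself lowers the SD of the stage with 2. With 2 libraries on each side, MII 1 and 2 against GV pairs, a comparison added after seeing the data, it was 1.08. The median held-out ratio over all 3 numbers was 1.77, and 1.35 with number 1 held out. Within 1 number, 0% of the 38 had another of them beside it. Annotated genes within 5% matched 0 loci. Those within 20% matched 10 (26.3%, against 60.0% of scarcer loci in the same count range, not matched for the ratio). For the rest, the cause was not tested. Of 81 alternative values, 67 were classed as unmoved, on a wide margin. That class took in 55 and 27 loci meeting the rule in place of 38, and 3632 features called higher in place of 4769. The replicate block called 32 of the 38 higher in MII, as without it, and 4094 features, and it changed no count by over 1.5 times. Counts of called loci among the 38 were 30 to 34 over 11 alternatives. Depth limits the scarcest loci most, and the fewest counts over 6 libraries were the 228 of MSTRG.24323.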

Other observations

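Some of the 38 loci already varied among GV oocyte libraries. The highest GV library was at least 3 times the lowest in 10 of the 38 (26.3%) and in 87 of the 3177 scarcer loci (2.74%). The 10 include MSTRG.15403, with 0 counts in GV library 2. These shares are not matched for level, since the median GV mean was 2.83 CPM in the 38 and 9.85 CPM in the scarcer loci. All of the 10 except MSTRG.22278, MSTRG.6905 and MSTRG.11780 had 65 or fewer counts over the GV libraries. Counting error was not separated. MSTRG.22278 had enough counts to be read directly, with 126, 68 and 393 in GV, or 4.67, 2.51 and 14.0 CPM, and its GV library 3 exceeded MII libraries 1 and 2. MSTRG.6905 had 56, 265 and 151 counts in GV and MSTRG.11780 had 109, 266 and 69, with library 2 the highest in both. In 8 of the 38 the highest GV and the highest MII library carried the same replicate number. The numbers pair no samples, and the same share was not taken for the scarcer loci, so no link between same-numbered libraries is read from it.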
